A study of Mus musculus with 6 samples.

Results

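Ctgf, Cyr61, Nt5e, Axl, Asap1, Ccdc80, Ankrd1, Amotl2 and Lats2 are 9 genes known as targets of the transcriptional coactivators YAP and TAZ, and they were followed here in mouse C2C12 myotubes given Sardomozide. The members were listed by symbol, and all 9 were found among the 24411 symbols of the count tables and among the 13076 genes that passed the filter on low counts. They were chosen by their measured counts in these libraries, with the difference between Sardomozide and DMSO already known, so their values for that difference are described and not tested. C2C12 is an immortalised mouse myoblast line, wild type per the labels, whose cells fuse into multinucleated myotubes when serum is lowered. Differentiated myotubes received 10 µM Sardomozide dihydrochloride for 72 h (3 libraries), or the solvent DMSO for 72 h (3 libraries), in medium with horse serum. Sardomozide inhibits the S-adenosylmethionine decarboxylase encoded by Amd1, which supplies the aminopropyl groups of spermidine and spermine. The cultures come from a single established line and may still hold unfused cells, and nothing in the labels tells separate cultures from repeat libraries of a culture, so the spread behind the p-values below may be technical.

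YAP (Yap1) and TAZ (Wwtr1) carry no DNA-binding domain and reach their targets through the TEAD transcription factors. The Hippo kinase cascade, in which MST kinases activate LATS kinases, phosphorylates YAP and TAZ and keeps them out of the nucleus. In muscle the pathway responds to mechanical load, actin tension and cell contact, and YAP is known to favour myoblast proliferation over differentiation. Among the 9 genes, Ctgf and Cyr61 encode secreted CCN matrix proteins, and Ccdc80 encodes another secreted matrix protein. Axl encodes a receptor tyrosine kinase for the ligand Gas6, and Nt5e the cell-surface nucleotidase CD73 that makes adenosine from AMP. Asap1 encodes a GTPase-activating protein for Arf proteins found at focal adhesions. Ankrd1 encodes the ankyrin repeat protein CARP, which binds titin in the sarcomere and also enters the nucleus. Amotl2, an angiomotin relative that holds YAP outside the nucleus, and Lats2, a kinase that phosphorylates YAP, are targets that act back on the pathway.

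Promoter windows of the members are shown because TEAD factors recognise a short core, GGAATG, and its position differs between the genes. RefSeq windows on GRCm38.p6, reaching from 250 bases before to 50 bases after an annotated transcription start, were at hand for 6 of the 9 members (Cyr61, Nt5e, Axl, Ankrd1, Amotl2 and Lats2). The core, searched as GGAATG and its reverse complement CATTCC, was in a window of 5 of these 6 genes, with Nt5e the exception. For comparison, 14.7% of all 32851 RefSeq windows held it, as did those of 2 of the 9 genes with a window in the rest of the YAP and TAZ signature and 4 of the 13 in the list of MRTF-SRF genes, both described below. Each match is given with 10 bases on either side, turned so that the core, in capitals, reads as GGAATG.
Ankrd1, 210 bases upstream: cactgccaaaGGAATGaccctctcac
Ankrd1, 123 bases upstream: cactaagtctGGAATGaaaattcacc
Axl, 233 bases upstream: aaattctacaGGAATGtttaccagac
Cyr61, 103 bases upstream: aaacatctcaGGAATGttggttggcg
Amotl2, 65 bases upstream: tgctatgccaGGAATGtgagagtttc
Lats2, 5 bases downstream: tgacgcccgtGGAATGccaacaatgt
Ankrd1 had 2 cores, and the other 4 genes had 1 each. Positions are counted from the RefSeq starts. The windows of Nt5e, Ankrd1, Amotl2 and Lats2 lie inside the gene bounds printed below, which come from GENCODE. The cores of Ankrd1, Amotl2 and Lats2 are thus within the annotated genes, and those of Cyr61 and Axl lie outside them. A match to these letters is a description of the sequence and does not show that a TEAD factor bound there. Neither the AP-1 motif TGANTCA, which reads the same on both strands, nor the CArG box of SRF was found in the members' windows. Those motifs were in 7.81% and 1.63% of all windows.

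The whole windows of Ankrd1 and Cyr61 are printed because these genes differed in opposite directions between the groups. They are written on the strand of the gene, with the TEAD core and its reverse complement in capitals, and the Ankrd1 window lies at chr19:36119795-36120094 and the Cyr61 window at chr3:145649936-145650235, both on the minus strand.
Ankrd1: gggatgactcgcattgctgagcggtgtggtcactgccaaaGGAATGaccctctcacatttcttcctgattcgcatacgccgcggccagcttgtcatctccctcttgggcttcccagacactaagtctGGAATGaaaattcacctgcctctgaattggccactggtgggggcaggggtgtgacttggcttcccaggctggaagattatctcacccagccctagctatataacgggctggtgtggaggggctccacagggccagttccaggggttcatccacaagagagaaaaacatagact
Cyr61: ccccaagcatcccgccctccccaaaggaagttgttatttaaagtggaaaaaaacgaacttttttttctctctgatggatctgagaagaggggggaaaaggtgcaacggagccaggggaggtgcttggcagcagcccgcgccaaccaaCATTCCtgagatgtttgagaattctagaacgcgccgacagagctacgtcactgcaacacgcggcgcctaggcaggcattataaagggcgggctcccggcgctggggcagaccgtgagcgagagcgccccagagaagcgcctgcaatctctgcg

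Library totals ran from 30820423 to 36709804 counts with Sardomozide and from 25496323 to 32108033 counts with DMSO. Levels are given as CPM, read counts scaled to a common library size with TMM factors. Where no read was counted, up to 3 counts remain possible, which is 0.0823 to 0.118 CPM by library if counting error alone is considered. Amd1 itself had 0, 0 and 0 counts with Sardomozide and 0, 3 and 0 with DMSO, so it gives no check of the labels. These counts do not show that Amd1 was not expressed, because the handling of multiply mapped reads is not stated. Why so few reads were counted was not tested. Myotube markers were abundant, and 9 of them summed to 17780 to 19260 CPM with Sardomozide and 17540 to 18840 CPM with DMSO, of which Myog rose and Myh8 fell. Markers of undifferentiated or cycling myoblasts (8 genes, Pax7 among them) summed to 472.7 to 515 CPM with Sardomozide and 476.7 to 489 CPM with DMSO, with Mki67 up, Spry1 down and 6 not passing. Fibroblast markers (7 genes) summed to 5154 to 6473 CPM with Sardomozide and 5820 to 6681 CPM with DMSO, with Dcn lower and 0 higher among the 5 tested. Nearly all of that sum came from Col1a1, Col1a2 and Postn. Pdgfra and Dcn stayed at or under 20.7 CPM, and Lum and Thy1 at or under 0.0961 CPM, in every library. The sum therefore does not establish that fibroblasts were present. Emcn, Ptprc, Adgre1 and all 4 adipocyte markers had no count in any library. The part of these markers in the members' values was not tested. In bulk RNA, fewer cells of a type and less RNA per cell cannot be told apart.

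The 9 genes did not share a direction. Ctgf, Nt5e, Asap1, Ccdc80, Cyr61 and Axl were lower in myotubes given Sardomozide, by 36.8% for Ctgf and by 9.32% for Axl at the ends of the range. Ankrd1 was 29.3% higher, Amotl2 was 8.11% higher, and Lats2 was 2.93% higher with overlapping groups. The median log2 fold change of the 9 was −0.23, beside −0.001 over all genes tested. In the fit across all genes 7 of the 9 passed an adjusted p of 0.05, 1 higher and 6 lower, where 16.3% of all genes passed, 7.88% higher and 8.45% lower. The count was 6 without Sardomozide replicate 1, where Cyr61 no longer passed, and 5 without Sardomozide replicate 3, DMSO replicate 1 or DMSO replicate 3, where Cyr61 and Axl no longer passed. The groups did not overlap for 8 of the 9 members, beside 33.5% of all genes. Because the same contrast was used to choose the members, nothing is read from these counts.

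**Figure D1:**
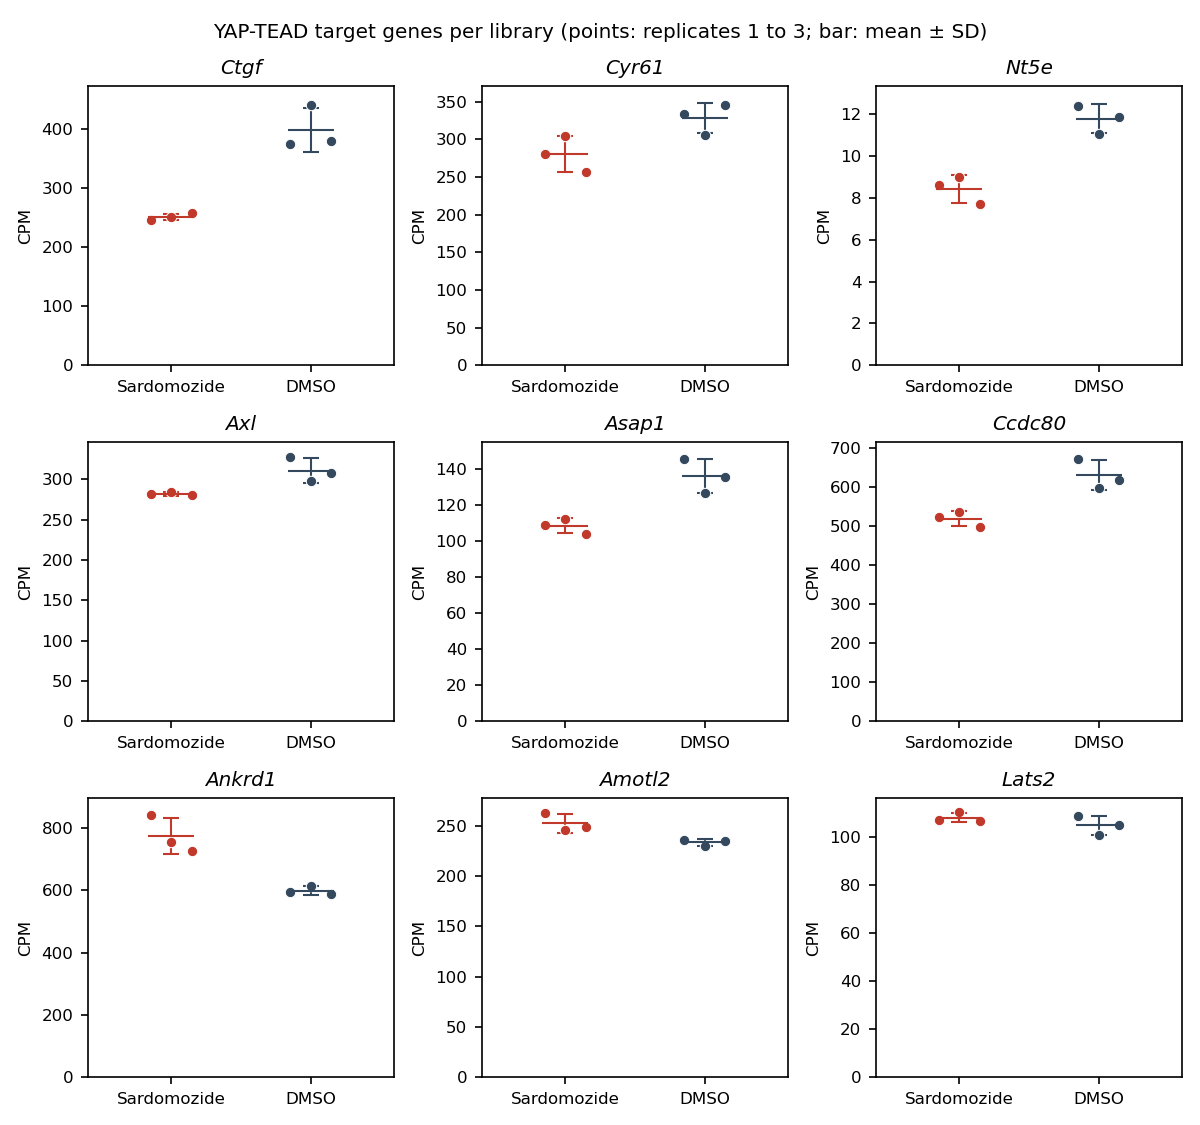
CPM of each of the 9 genes (vertical axis from 0) in the 3 Sardomozide libraries and the 3 DMSO libraries, with points for replicates 1 to 3 from left to right and a bar for mean ± SD. Ctgf lies between 246.8 and 257.5 CPM with Sardomozide, against 374.1 to 440.7 CPM with DMSO, whereas Ankrd1 lies between 726.7 and 840.2 CPM with Sardomozide, against 587.5 to 613.7 CPM with DMSO.

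The CCN genes differed in how far apart the groups lay. Ctgf (chromosome 10, 24595442 to 24598683, plus strand, GRCm38, as all gene positions here) had 246.8, 250.9 and 257.5 CPM with Sardomozide and 374.1, 440.7 and 380.3 CPM with DMSO. All 3 Sardomozide libraries lay well below the lowest DMSO library, and DMSO replicate 2 stood highest. The means were 251.7 ± 5.41 CPM with Sardomozide and 398.4 ± 36.8 CPM with DMSO (SD, n = 3 each), a log2 fold change of −0.66 ± 0.054 (here and below, ± after a log2 fold change is a standard error). Cyr61 (chromosome 3, 145646976 to 145649981, minus strand) had 280.4, 304.7 and 256.2 CPM with Sardomozide and 333.8, 306.3 and 345.2 CPM with DMSO. Its groups nearly touched, at Sardomozide replicate 2 and DMSO replicate 2, and its log2 fold change was −0.23 ± 0.06. An antisense transcript gene, Gm15270, covers 23.2% of the Ctgf exon length and has no row in the count tables, and whether the authors counted by strand is not given in the sources used here.

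The matrix protein gene Ccdc80 (chromosome 16, 45093402 to 45128077) had 523, 537 and 499 CPM with Sardomozide and 673.5, 599.3 and 619.1 CPM with DMSO. Every Sardomozide library was below every DMSO library, with a log2 fold change of −0.28 ± 0.048. Nt5e (chromosome 9, 88327197 to 88372092) had 8.58, 9 and 7.68 CPM with Sardomozide and 12.4, 11 and 11.9 CPM with DMSO. It was the least counted member, with 240 to 354 counts a library, so that counting error alone reached 6.45% of a value. Its log2 fold change of −0.48 ± 0.11 was next to that of Ctgf in size and had the largest standard error of the 9. Asap1 (chromosome 15, 64086857 to 64382919) had 108.9, 112.4 and 104.2 CPM with Sardomozide and 145.5, 126.8 and 135.8 CPM with DMSO, a log2 fold change of −0.33 ± 0.051 without overlap. The receptor gene Axl (chromosome 7, 25757273 to 25788705) had 281.6, 284 and 280.2 CPM with Sardomozide and 327.5, 297.5 and 307.9 CPM with DMSO. Its Sardomozide libraries were nearly level, with a coefficient of variation of 0.682%, and the log2 fold change was −0.14 ± 0.043.

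Ankrd1 (chromosome 19, 36111961 to 36120099) had 840.2, 755.2 and 726.7 CPM with Sardomozide and 594.6, 613.7 and 587.5 CPM with DMSO. Every Sardomozide library was above every DMSO library, with means of 774.1 ± 59.1 CPM with Sardomozide and 598.6 ± 13.6 CPM with DMSO (SD, n = 3 each) and a log2 fold change of 0.37 ± 0.05. Amotl2 (chromosome 9, 102716672 to 102733418) had 262.5, 245.6 and 248.2 CPM with Sardomozide and 235.5, 229.7 and 234.5 CPM with DMSO. The Amotl2 groups did not overlap, but its log2 fold change of 0.11 ± 0.042 was small. Lats2 (chromosome 14, 57689662 to 57758388) had 106.9, 110.1 and 106.6 CPM with Sardomozide and 108.8, 100.9 and 104.8 CPM with DMSO, with overlapping groups and a log2 fold change of 0.04 ± 0.045. Another protein-coding annotation on the same strand, Gm49361, shares 42.4% of the Lats2 exon length and has no row in the count tables, so the Lats2 counts are uncertain.

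Per kilobase of exon (CPM divided by the union of GENCODE M21 exons in kb), Ankrd1 was the most abundant of the 9 in both groups, at 268 CPM per kb with Sardomozide and 207 with DMSO. Cyr61 followed at 139 CPM per kb with Sardomozide and 163 with DMSO, then Ccdc80 at 121 with Sardomozide and 147 with DMSO, and Ctgf at 88 with Sardomozide and 139 with DMSO. The ranges of Cyr61, Ccdc80 and Ctgf stood apart with Sardomozide (127 to 151, 116 to 125 and 86.3 to 90 CPM per kb) and overlapped with DMSO (152 to 171, 140 to 157 and 131 to 154 CPM per kb). Axl had 56 CPM per kb with Sardomozide and 61.8 with DMSO, and Amotl2 had 40.1 with Sardomozide and 37.1 with DMSO. Lats2 stood above Asap1 with Sardomozide (15.5 against 14.5 CPM per kb) and below it with DMSO (15 against 18.2), with no overlap between the libraries of these genes in either group. Nt5e was the lowest at 0.979 CPM per kb with Sardomozide and 1.37 with DMSO. With DMSO, 98.8% of the tested genes with a length lay below Ankrd1 on this scale and 22.1% lay below Nt5e.

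Within a group most members were ordered alike over the libraries. Ctgf was ordered the other way with DMSO, and with Sardomozide only in the place of replicate 3. Among the Sardomozide libraries, replicate 3 had the lowest value of 7 of the 9 genes and the highest of Ctgf. Among the DMSO libraries, replicate 2 had the lowest value of 7 of the 9 and the highest of Ctgf and Ankrd1. So the library in which most members were lowest was, in each group, the one in which Ctgf was highest. The coefficient of variation of Ctgf was 2.14% with Sardomozide and 9.24% with DMSO, and that of Ankrd1 was 7.63% with Sardomozide and 2.26% with DMSO. Counting error was at most 1.12% for Ctgf and 0.813% for Ankrd1. With Sardomozide, the coefficient of variation of Axl (0.682%) was under its largest counting error (1.1%). The order of the Sardomozide libraries for Axl may therefore be counting error. That of Lats2 was 1.8% with Sardomozide, at 3330 to 3899 counts a library. Its largest counting error of 1.9% came from the 2766 counts of DMSO replicate 1. For Nt5e the coefficient of variation was 5.88% with DMSO, at 315 to 354 counts a library. Its largest counting error of 6.45% came from the 240 counts of Sardomozide replicate 3. Counting error was not set against the spread by group, so the order for Lats2 and Nt5e stays uncertain. These spreads rest on 3 libraries each and were not tested.

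**Figure D2:**
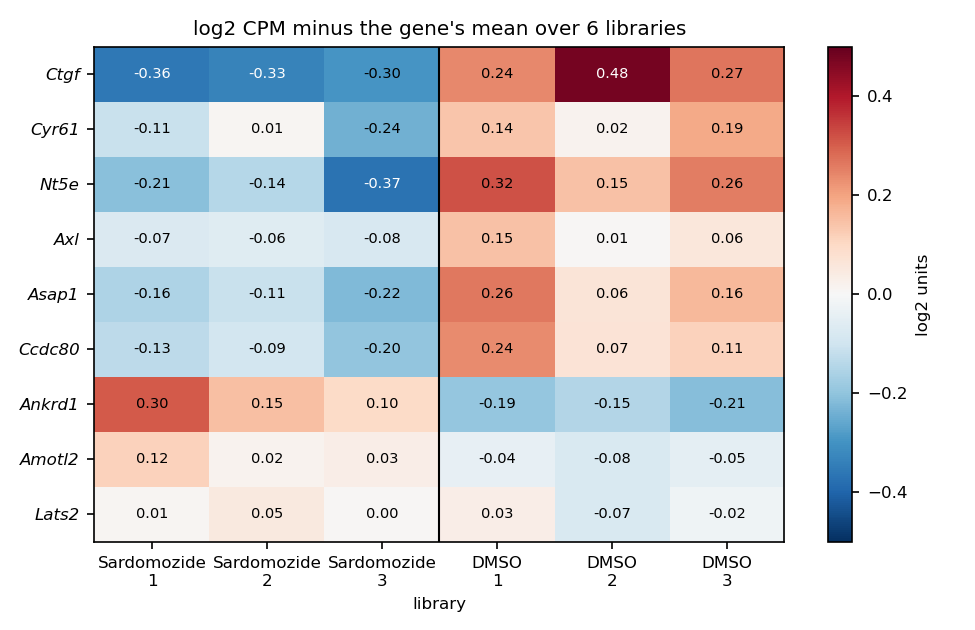
Log2 CPM (prior count of 2) of each gene minus that gene's mean over the 6 libraries, with libraries in columns, Sardomozide left of the line and DMSO right of it, and colour and printed number giving the same value. The top 6 genes are mostly blue with Sardomozide and red with DMSO, Ankrd1 is the reverse, and Ctgf is darkest in DMSO replicate 2, where most of the other genes are palest or lowest among the DMSO libraries.

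Ratios of read counts within a library, which no scaling between libraries can change, show the same split. The choice of pairs was made with the values in view. The ratio of Ankrd1 to Ctgf was 3.4, 3.01 and 2.82 with Sardomozide and 1.59, 1.39 and 1.54 with DMSO. That of Amotl2 to Ctgf was 1.06, 0.979 and 0.964 with Sardomozide and 0.63, 0.521 and 0.616 with DMSO. Lats2 to Asap1 gave 0.982, 0.98 and 1.02 with Sardomozide and 0.748, 0.796 and 0.772 with DMSO. None of the 3 ratios overlapped between the groups. Cyr61 to Ctgf averaged 1.11 ± 0.11 with Sardomozide and 0.832 ± 0.119 with DMSO (SD, n = 3 each). Since the members were chosen on the same difference, these ratios support nothing further.

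**Figure D3:**
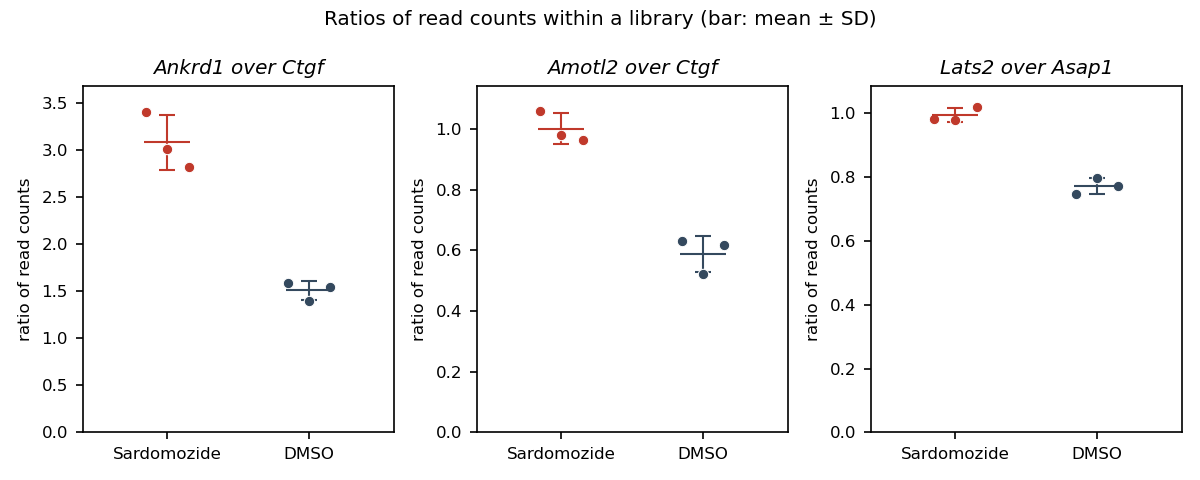
Ratio of the read counts of paired genes in the same library (vertical axis from 0), for 3 Sardomozide and 3 DMSO libraries, with points for replicates 1 to 3 and a bar for mean ± SD. The ratio of Ankrd1 to Ctgf is 3.08 ± 0.296 with Sardomozide and 1.51 ± 0.104 with DMSO.

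The regulators of these genes were tested in the fit across all genes. Of 9 genes for YAP, TAZ, the TEAD factors and the VGLL cofactors that compete for TEADs, 0 rose, 3 fell and 6 did not pass (edgeR's quasi-likelihood test, Benjamini-Hochberg adjustment over all genes), 33.3% lower against 8.45% of all genes. Wwtr1, which encodes TAZ, had 333.3, 334.1 and 317.7 CPM with Sardomozide and 387.4, 381.6 and 402.6 CPM with DMSO, and fell with a log2 fold change of −0.25 ± 0.042 (edgeR adjusted p = 0.000331). Yap1 had 120.1, 129.3 and 122.8 CPM with Sardomozide and 119.3, 128.3 and 122.7 CPM with DMSO, overlapping groups with a log2 fold change of 0.007 ± 0.046 (edgeR adjusted p = 0.94). Tead3 and Tead2 fell, by 0.24 and 0.19 on the log2 scale (edgeR adjusted p = 0.0103 and 0.0277). Tead1, the most counted TEAD gene, averaged 339.8 ± 1.7 CPM with Sardomozide and 317.6 ± 10.6 CPM with DMSO (SD, n = 3 each; edgeR adjusted p = 0.117), and Tead4 averaged 155.8 ± 5.24 CPM with Sardomozide and 161 ± 8.68 CPM with DMSO (edgeR adjusted p = 0.543). The cofactor genes Vgll2, Vgll3 and Vgll4 did not pass (edgeR adjusted p = 0.416, 0.797 and 0.456), at log2 fold changes of −0.49 ± 0.34, 0.02 ± 0.044 and 0.09 ± 0.072. The median of the 9 was −0.05, beside −0.001 over all genes. The list was written with earlier results of these data known. The share over all genes includes many genes with far fewer counts, so it is not a matched comparison. Tead2 did not pass without Sardomozide replicate 2 or 3 or DMSO replicate 1 or 2 (edgeR adjusted p = 0.0716, 0.112, 0.13 and 0.0696), and Tead3 did not pass without DMSO replicate 3 (0.076).

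Upstream of YAP and TAZ, 25 of 26 listed genes of the Hippo kinase module were tested; 2 rose, 1 fell and 22 did not pass, 12% called against 16.3% of all genes. Rassf1, a scaffold of the MST kinases, had a mean of 60.8 ± 4.57 CPM with Sardomozide and 46.3 ± 0.604 CPM with DMSO (SD, n = 3 each; log2 fold change 0.39 ± 0.06, edgeR adjusted p = 0.000123). Mob1b, a LATS coactivator, rose (0.20 ± 0.061, edgeR adjusted p = 0.0313), and Wwc2, a KIBRA relative, fell (−0.18 ± 0.049, 0.0156). Mob1b closely resembles Mob1a, so reads could be split between them. The calls for Mob1b and Wwc2 were lost when some libraries were left out. For Mob1b these were Sardomozide replicates 1 and 2 and DMSO replicates 1 and 3 (edgeR adjusted p = 0.0828, 0.0784, 0.126 and 0.0896), and for Wwc2 Sardomozide replicate 3 and DMSO replicates 1 and 3 (0.0649, 0.0684 and 0.109). Conversely, Sike1 passed without Sardomozide replicate 1 and Tnik without DMSO replicate 2 (0.0476 and 0.0185). The kinase genes Stk3, Stk4 and Lats1 had log2 fold changes of −0.02 ± 0.057, 0.007 ± 0.059 and −0.05 ± 0.054 and did not pass (edgeR adjusted p = 0.84, 0.957 and 0.593); they were named after their values were seen.

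The other CCN genes gave 0 calls among 3 tested by edgeR, with no unadjusted p under 0.05 (0.304, 0.0819 and 0.376 for Nov, Wisp1 and Wisp2). DESeq2 gave 0 as well. Wisp1 averaged 383.2 ± 5.99 CPM with Sardomozide and 404.7 ± 17.6 CPM with DMSO, and Wisp2 averaged 53.5 ± 9.19 CPM with Sardomozide and 58.2 ± 4.74 CPM with DMSO (SD, n = 3 each). Nov had 173, 158 and 267 counts with Sardomozide and 130, 841 and 138 with DMSO. DMSO replicate 2, in which Ctgf was highest, thus stood far above the other libraries in Nov, and the Nov log2 fold change of −1.03 turned to 0.29 without it. Wisp2 passed as lower without Sardomozide replicate 2 (edgeR adjusted p = 0.0231). Wisp3 had 3, 0 and 4 counts with Sardomozide and 0, 0 and 2 with DMSO and was not tested.

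A further 13 genes belong with the 9 members to a published conserved signature of YAP and TAZ activity, and all 13 were tested. Of these 3 rose, 0 fell and 10 did not pass, 23.1% called against 16.3% of all genes, with a median log2 fold change of −0.01. Igfbp3, which encodes a binding protein of insulin-like growth factors, rose (0.35 ± 0.066, edgeR adjusted p = 0.00105), as did the stress gene Gadd45a (0.24 ± 0.045, 0.00104) and the growth factor gene Tgfb2 (0.18 ± 0.048, 0.0157). Tgfb2 did not pass without Sardomozide replicate 2 or DMSO replicate 1 or 2 (edgeR adjusted p = 0.0518, 0.083 and 0.0946). The log2 fold changes of the 13 ran from −0.12 to 0.35, so none was as low as those of Ctgf, Nt5e, Asap1, Ccdc80, Cyr61 or Axl. The 9 members were picked with their differences known, and these 13 are the signature genes that were not picked.

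Among 19 further genes reported elsewhere as YAP or TAZ targets, 2 rose, 2 fell and 15 did not pass, 21.1% called against 16.3% of all genes, with a median log2 fold change of −0.05. Thbs1, the gene of the matrix protein thrombospondin-1, averaged 1830 ± 108 CPM with Sardomozide and 2332 ± 221 CPM with DMSO (SD, n = 3 each) and fell (log2 fold change −0.35 ± 0.064, edgeR adjusted p = 0.00179). Slit2, which encodes a secreted guidance protein, fell by 0.36 on the log2 scale (edgeR adjusted p = 0.000151). Tgm2, a protein crosslinking enzyme, and Cdc42ep3, an effector of the GTPase Cdc42, rose (0.25 ± 0.047 and 0.21 ± 0.045, edgeR adjusted p = 0.000967 and 0.00288). These 4 calls were kept in every fit that left out a library.

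Ctgf, Cyr61 and Ankrd1 are also known to respond to SRF and its actin-regulated MRTF coactivators, and genes of that pathway were counted. Of 15 MRTF-SRF genes 0 rose, 8 fell and 7 did not pass, 53.3% lower against 8.45% of all genes, with a median log2 fold change of −0.19 beside −0.001 over all genes. This list was written with earlier results of these data known. The share over all genes also includes many genes with far fewer counts, so the 2 shares are not matched. Zyx, the gene of the focal adhesion protein zyxin, averaged 540.3 ± 3.07 CPM with Sardomozide and 662 ± 11.8 CPM with DMSO (SD, n = 3 each; log2 fold change −0.29 ± 0.041, edgeR adjusted p = 5.18e-05). Cnn2, which encodes an actin-binding calponin, averaged 222.5 ± 4.35 CPM with Sardomozide and 272.7 ± 7.53 CPM with DMSO (−0.29 ± 0.041, 6.25e-05). The actin crosslinker gene Flna, the myosin light chain gene Myl9, the transgelin gene Tagln and the LIM protein gene Fhl2 fell by 0.30, 0.28, 0.22 and 0.24 on the log2 scale (edgeR adjusted p = 0.00117, 0.00112, 0.00358 and 0.0186). The cytoplasmic actin genes Actb and Actg1 fell by 0.19 and 0.17 (edgeR adjusted p = 0.00556 and 0.0197), and since they resemble each other and many pseudogenes their counts are uncertain. Acta2, Vcl, Srf, Mkl1 and Mkl2 were among those that did not pass (log2 fold changes 0.01, −0.05, −0.13, 0.07 and 0.009). Over the fits that left out a library 6 to 8 of the 15 fell. Actg1 did not pass without Sardomozide replicate 1 or DMSO replicate 1 or 3 (edgeR adjusted p = 0.0631, 0.126 and 0.0564), and Fhl2 did not pass without Sardomozide replicate 1 or DMSO replicate 1 or 2 (0.084, 0.104 and 0.0761). Srf passed as lower without Sardomozide replicate 1 (0.0403). A CArG box was in the promoter windows of 6 of the 13 genes of this list that had one, compared with 0 of 6 members.

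**Figure D4:**
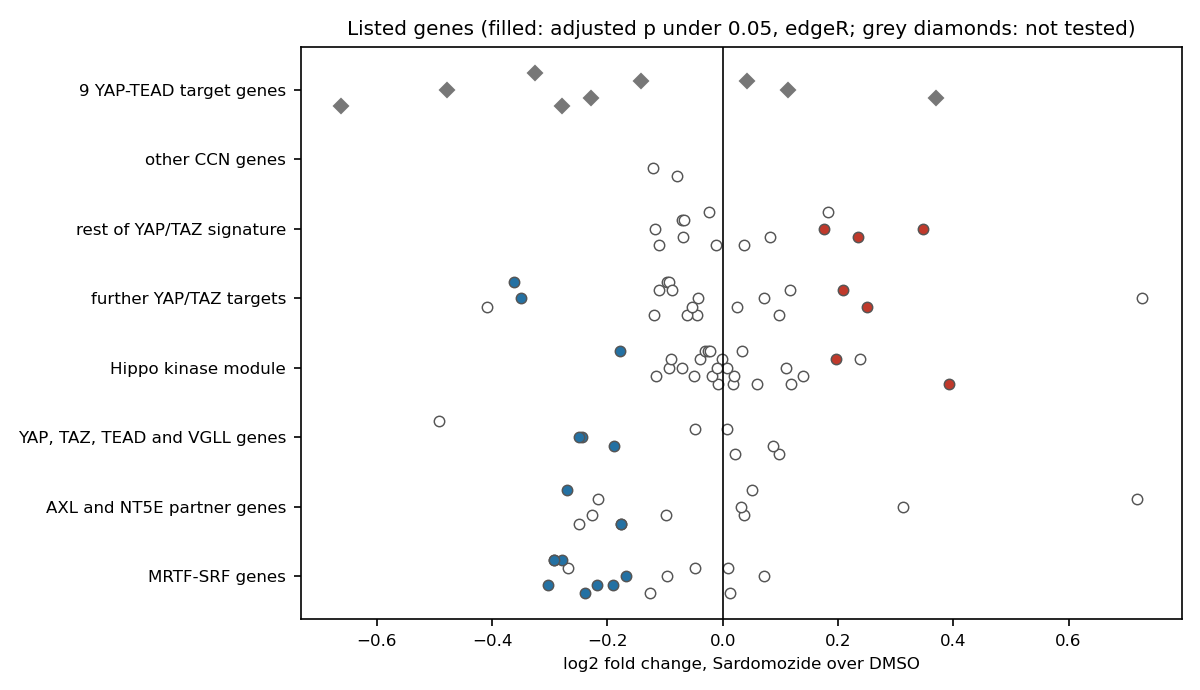
Log2 fold change of Sardomozide over DMSO (horizontal axis) for the 9 members (grey diamonds, not tested) and for each tested gene of 7 lists (circles, filled red or blue where edgeR's adjusted p was under 0.05 as a rise or a fall), with vertical offsets only to separate points; Nov, at −1.03, is left out and Tead1 is in 2 lists. The members reach from −0.66 to 0.37, and the MRTF-SRF list has 8 filled circles, all below 0.

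Partners of the surface proteins AXL and CD73 were counted in the same way, and 12 of 13 were tested; 0 rose, 3 fell and 9 did not pass, 25% lower against 8.45% of all genes, with a median of −0.14. Pros1, which encodes protein S, a ligand of AXL's relatives, fell (−0.27 ± 0.066, edgeR adjusted p = 0.00747), whereas Gas6, the AXL ligand gene, averaged 76 ± 6.28 CPM with Sardomozide and 74.4 ± 4.66 CPM with DMSO (SD, n = 3 each; edgeR adjusted p = 0.783). Enpp1, a nucleotide pyrophosphatase that makes AMP, and Slc29a1, a nucleoside transporter, fell by 0.18 each on the log2 scale (edgeR adjusted p = 0.013 and 0.00911). Without DMSO replicate 1 the Enpp1 adjusted p was 0.113. The adenosine receptor gene Adora1 passed as higher without DMSO replicate 2 (edgeR adjusted p = 0.027), and had 0.0601 with all libraries. The list of partners was also written with earlier results of these data known, and its share is not matched to that of all genes in read counts.

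The genes nearest in profile to each CCN gene were sought among 10276 other named genes, by the root mean square difference of log2 CPM centred on each gene over the 6 libraries. For Ctgf these were Clip4, Etv5 and Oaz2, at 0.061, 0.073 and 0.079. Clip4 averaged 21.4 ± 1.21 CPM with Sardomozide and 35.1 ± 1.5 CPM with DMSO (SD, n = 3 each). For Cyr61 they were Wnt11, Slc10a7 and Ptpn13, at 0.021, 0.032 and 0.033, and Wnt11 averaged 8.92 ± 0.813 CPM with Sardomozide and 10.4 ± 0.791 CPM with DMSO. Among the members, Nt5e was the nearest to Ctgf (0.172, rank 137) and Ccdc80 the nearest to Cyr61 (0.07, rank 156), while Ctgf and Cyr61 lay 0.262 apart. Cyr61 ranked 1184 for Ctgf, and Ctgf ranked 9264 for Cyr61. The distance spans both groups, so it restates in part the difference on which the members were chosen. Ankrd1 was the farthest member from both (0.523 and 0.318).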

How the data were processed

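RNA from 6 C2C12 libraries, 3 with Sardomozide and 3 with DMSO, was read as pairs of 150 bases on a NovaSeq instrument, per the labels' protocols. The authors deposited raw read counts per gene symbol, one table per library. STAR, StringTie and DESeq2 and the builds GRCm38 and mm10 are named in the submitters' processing notes, whereas versions, annotation, strand use and the handling of multiply mapped reads are not stated there. Groups were taken from the labels.

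Genes were filtered with filterByExpr (minimum count 10, minimum total 15), scaled by TMM and tested two-sided with edgeR 4.0.16 under R 4.3.3 (robust quasi-likelihood fit, treatment only), with Benjamini-Hochberg adjustment over 13076 genes. Standard errors are the log2 fold change over the root of its F value. The steps were tested on simulated counts. No pair of replicates agreed within sampling noise (chi-square per degree of freedom 5.45 to 16.1). Gene positions and exon lengths come from GENCODE M21 on GRCm38, and promoter windows from RefSeq on GRCm38.p6.

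The members and the lists of genes were chosen with earlier results of these data known. The text names the 9 members, every called gene of a list, all CCN, YAP, TAZ, TEAD and VGLL genes and the 3 genes nearest in profile to Ctgf and Cyr61; further names were added after their values were seen, and some listed genes are not reported here. Alternatives were RLE or no scaling factors, no filter or 50 counts in every library of a group, DESeq2 1.42.0, the replicate number as a block, and leaving out each library in turn.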

Additional observations from a re-analysis of the deposited data

How the results depend on the processing

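Counts of 2135 called genes became 2129 with RLE scaling factors, 2105 without scaling factors, 2389 without a filter, 2117 with the stricter filter and 2050 with DESeq2. With a library left out they ran from 1326 (without DMSO replicate 1) to 1952. No setting run turned the sign of a member's log2 fold change, Lats2 included. None moved it by more than the spread between libraries. Leaving out 1 of 3 libraries can hardly do so by construction, so nothing is read from that. Left-out libraries gave −0.71 to −0.58 for Ctgf, −0.29 to −0.17 for Cyr61, 0.31 to 0.41 for Ankrd1 and 0.01 to 0.07 for Lats2 (0.04 with all libraries). Of 24 called genes of the lists, 16 were called under every setting, and none turned its direction. Samples with the same replicate number did not deviate together (r = 0.022, −0.023 and −0.018 across genes), and with the replicate number as a block 1820 genes were called, 6 members instead of 7 passed, and 1 gene of the Hippo kinase module rose instead of 2. In that fit Axl, Mob1b and Actg1 no longer passed (edgeR adjusted p = 0.0516 for Mob1b and 0.055 for Actg1), so 7 instead of 8 MRTF-SRF genes fell, and Vgll2 passed as lower (−0.51, edgeR adjusted p = 0.0105), so 4 instead of 3 of the YAP, TAZ, TEAD and VGLL genes fell. Among the AXL and CD73 partners 1 gene instead of 0 rose without a filter (Adora1) and 1 with the stricter filter (Adora2a). Without a filter 4 instead of 3 partners fell, and 3 instead of 2 genes of the Hippo kinase module rose (Tnik, edgeR adjusted p = 0.0462). With the stricter filter 9 instead of 8 MRTF-SRF genes fell (Srf, edgeR adjusted p = 0.0463). Leaving out a library gave 1 to 3 rises and 0 to 2 falls in the Hippo kinase module, 0 to 1 rises and 2 to 3 falls among the partners and 0 to 1 falls among the other CCN genes. Depth limits Nt5e most, at 240 to 354 counts a library, and the cause of the lower counts without a library was not tested.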
